A study of Mus musculus with 25 samples.

Results

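The genes described here are the Wnt ligands, their Frizzled receptors and Lrp5/Lrp6 co-receptors, their secreted inhibitors, and the nuclear factors and feedback target Tcf7, Lef1 and Axin2. They were taken by name from the protein-coding genes of the table of sorted cells, which gave 43 of its 43693 genes: 19 ligands, 10 Frizzled receptors, 2 co-receptors, 5 ligand-binding inhibitors (Sfrp1, Sfrp2, Sfrp4, Sfrp5 and Wif1), 4 Dickkopf genes and 3 nuclear factors or targets. Wnt ligands are secreted lipid-modified proteins. In the canonical branch a ligand bridges a Frizzled receptor and Lrp5 or Lrp6, the Axin complex stops destroying beta-catenin, and beta-catenin joins Tcf/Lef factors on target genes such as Axin2; other branches act through planar cell polarity proteins or calcium. In the central nervous system Wnt7a and Wnt7b are known for signalling from neural cells to the endothelium in vessel growth and barrier formation.

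The series sequenced libraries made from total RNA of mouse spinal cord after a contusion and in cultured astrocytes. Sorted libraries came from GFAP-Cre-/+:R26-tdT-/+ mice, in which a Gfap-driven Cre switches on the red protein tdTomato, so tdTomato marks cells that express or once expressed the driver. The cells were dissociated from the injury centre, cleared of myelin and sorted for tdTomato. Mice received a contusion of 60 kdyn at T9 and were taken after 7 days (3 libraries), 1 month (3) or 3 months (2, replicates 1 and 3), and sham mice had a laminectomy alone and were taken after 7 days (3). Since sham was taken at 7 days alone, the later groups differ from it in time too. Whole tissue of C57BL/6 mice was taken 1 month and 3 months after the same contusion (3 libraries each), and every sorted or tissue library pooled 3 mice. Primary astrocytes of C57BL/6 pups of postnatal day 4 to 7 received a control lentivirus, labelled WT, or a knockdown lentivirus, labelled Zeb2os -/- or Zeb2 -/-, followed by puromycin at 1 µg/ml from 24 h (Zeb2os set) or 48 h (Zeb2 set) after infection. Each of these 4 culture groups held 2 libraries, and the labels do not say whether they were separate cultures, so p-values there measure a spread that may be technical.

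Total counts ran from 15712423 to 50211071 in sorted libraries, from 15423131 to 27138885 in tissue, from 45627745 to 158099842 in the Zeb2os set and from 29027058 to 65434619 in the Zeb2 set. Levels are counts-per-million values (CPM) on totals scaled by edgeR's TMM method, and lists of 10 to 12 markers per cell type were summed in the same unit. The sorted cells carried less astrocyte marker RNA than whole tissue: the sums were 4162 to 5765 in sham, 2452 to 2924 after 7 days, 1447 to 1529 in the 1-month group, 1249 to 1409.9 in the 3-month group, and 11815 to 15343 in tissue. Markers of oligodendrocyte precursors summed to 6601 to 10599 in sorted libraries and 632 to 820.5 in tissue, so the label astrocyte is not borne out by these lists and the libraries are called sorted cells here. Sham replicate 3 stood apart, with summed Schwann cell markers of 2339.7 against 369 and 220.2 in replicates 1 and 2. After injury the summed microglia and macrophage markers were 3915 to 13091 against 392 to 1715 in sham, and the endothelial markers were 227 to 609 against 58.4 to 170.3. In these bulk samples a smaller share of cells of one type and less RNA per cell cannot be told apart.

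To set genes side by side, CPM was divided by exonic length in kilobases. In sham cells the highest members on this scale were the inhibitor Sfrp5 (43.5 ± 30.5 CPM per kb, SD, n = 3), the receptors Fzd9 (41.0 ± 4.65) and Fzd1 (20.6 ± 1.91), and the ligands Wnt7a (17.6 ± 0.12) and Wnt7b (16.2 ± 1.68). Sfrp5 and Fzd9 did not differ beyond their spread. At 7 days the order was led by Fzd1 (27.3 ± 3.79), the divergent Dickkopf gene Dkk3 (19.7 ± 0.64) and Fzd9 (18.2 ± 6.15). At 1 month Fzd9 (39.0 ± 4.58) and Fzd1 (33.4 ± 2.55) led again, and at 3 months Sfrp5 (48.2 ± 20.2, n = 2) and Fzd9 (34.1 ± 4.21). In whole tissue Dkk3 came first at both times (41.1 ± 0.71 at 1 month and 38.7 ± 1.39 at 3 months). In the cultures Fzd7 or Dkk3 came first in each of the 4 groups.

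The sequences just upstream of 3 members are shown because these genes had the largest called changes at 7 days among genes with over 1 CPM in all libraries of a group, Wnt7a and Wnt11 lower and Dkk2 higher. Each is the 250 bases before the RefSeq start in GRCm38.p6, 5′ to 3′ on the gene's own strand: Wnt7a at chr6:91411354-91411603 (minus strand), Wnt11 at chr7:98834862-98835111 (plus strand, the upstream one of its starts) and Dkk2 at chr3:132085042-132085291 (plus strand). Capitals mark a match to the Tcf/Lef-type motif CTTTGAT, to its variant motif CTTTGAA or to its variant motif CTTTGTT, each searched on both strands.
Wnt7a: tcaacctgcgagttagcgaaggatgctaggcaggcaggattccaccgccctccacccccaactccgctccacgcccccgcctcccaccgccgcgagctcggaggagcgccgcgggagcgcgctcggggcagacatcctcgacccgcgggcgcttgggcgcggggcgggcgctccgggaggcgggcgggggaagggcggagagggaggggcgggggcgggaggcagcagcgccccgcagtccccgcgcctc
Wnt11: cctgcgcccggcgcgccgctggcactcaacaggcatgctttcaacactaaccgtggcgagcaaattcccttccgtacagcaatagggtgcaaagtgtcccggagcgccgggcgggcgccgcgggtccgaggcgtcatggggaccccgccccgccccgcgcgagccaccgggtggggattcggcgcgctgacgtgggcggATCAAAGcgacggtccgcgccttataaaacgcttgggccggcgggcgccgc
Dkk2: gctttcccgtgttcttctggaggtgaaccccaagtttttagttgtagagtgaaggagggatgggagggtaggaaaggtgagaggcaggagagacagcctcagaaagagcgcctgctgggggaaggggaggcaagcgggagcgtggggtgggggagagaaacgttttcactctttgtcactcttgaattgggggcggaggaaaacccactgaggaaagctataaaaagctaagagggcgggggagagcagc
Wnt11 held CTTTGAT on the opposite strand, beginning 51 bases before the start (position -51), and the other two held none of the motifs. Over windows from 250 bases before to 50 after the start, at least 1 of the motifs occurred in 5 of 36 member promoters (29 genes), or 13.9%, and in 13.9% of 32851 promoters of all genes. The member genes with a match were Dkk1, Fzd7, Wnt3, Wnt5b and Wnt11. A match describes letters in this window and no more.

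The first question was how these genes differ between sham and injured cord in the sorted cells. Of the 43 members, 38 had enough counts to be tested, and Wnt1, Wnt2, Wnt3a, Wnt9b and Dkk4 did not. Rise and fall are used of genes whose p, from edgeR's quasi-likelihood test with Benjamini-Hochberg adjustment over all genes, was under 0.05; every adjusted p below has this source. At 7 days 11 of the 38 were called, 5 higher and 6 lower, against 18.3% of all genes tested (9.87% higher, 8.41% lower). At 1 month 8 were called, 3 higher and 5 lower, against 12.1% of all genes (6.23% higher, 5.83% lower). At 3 months 6 were called, 2 higher and 4 lower, against 11.7% (6.78% higher, 4.93% lower). The 7-day count was 7 without 7-day replicate 2, and the 1-month count was 5 without sham replicate 1 and 4 without any one 1-month library. The 3-month count was 4 without 3-month replicate 3 and 2 when only sham and 3-month libraries were fitted. The median log2 change of the tested members was 0.20, 0.27 and 0.14 at the 3 times, beside -0.06, -0.02 and -0.10 over all genes. The 3 comparisons share the sham libraries. No ligand was called higher at any time, though some with few counts in sham held more after injury, as given below. Of 15 tested ligands 4 fell at 7 days, 3 at 1 month and 2 at 3 months.

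**Figure D1:**
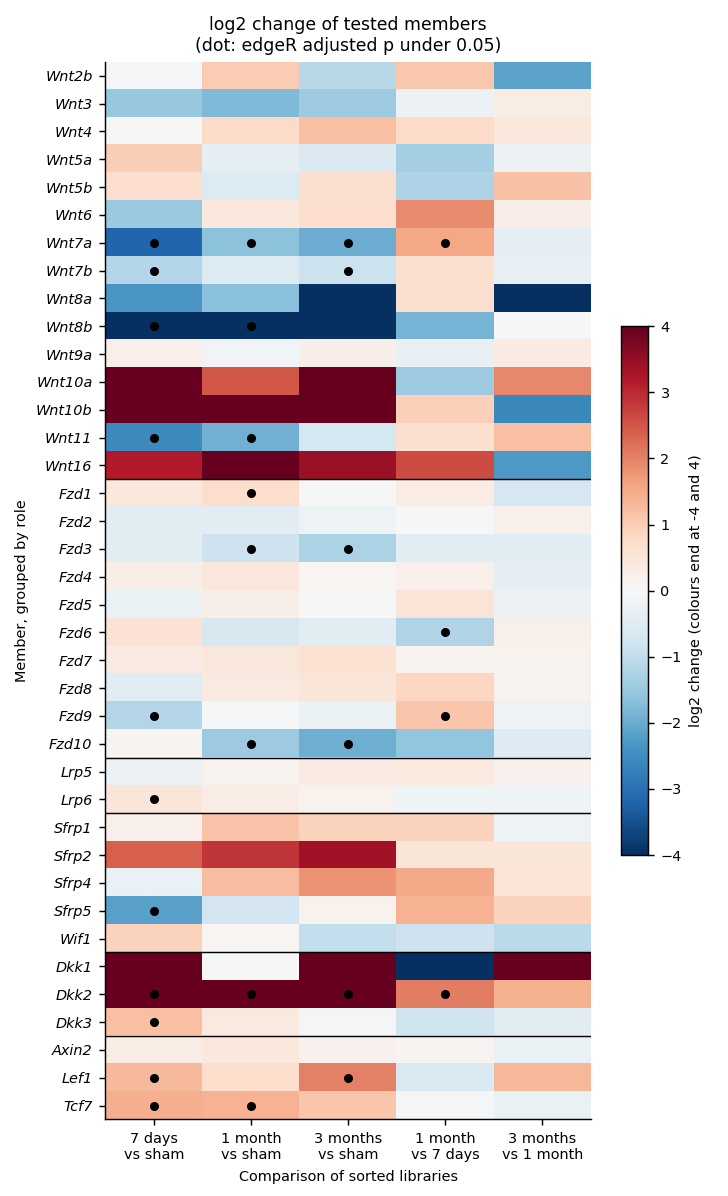
The colour map gives the log2 change of each of the 38 tested members (rows, grouped by role) in 5 comparisons of sorted libraries (columns), with a dot at each call; colours end at -4 and 4. Wnt7a is blue with a dot in all 3 comparisons with sham and Dkk2 is red with a dot in all 3, while strong colours without a dot belong to members with few or no counts in a group, whose fitted change is no measure of size.

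Wnt7a (chromosome 6, 91363981 to 91411363, minus strand, GRCm38) was the ligand with the steadiest fall. Its sham libraries held 55.7, 55.6 and 56.3 CPM, its 7-day libraries 8.06, 3.20 and 7.22, its 1-month libraries 19.2, 17.9 and 16.7, and its 3-month libraries 8.60 and 19.6. Every injured library was below every sham library, and the 7-day libraries were all below those of 1 month. Wnt7a fell at 7 days (log2 change -3.18 ± 0.35 SE, adjusted p = 1.71e-05), at 1 month (-1.64 ± 0.33, adjusted p = 0.00347) and at 3 months (-1.99 ± 0.39, adjusted p = 0.00288). These 3 calls held when any one sorted library was left out.

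Wnt7b, the close relative of Wnt7a (chromosome 15, 85535437 to 85582473, minus strand), held 85.1, 82.6 and 69.8 CPM in sham, 36.1, 31.4 and 37.3 at 7 days, 53.7, 56.8 and 53.7 at 1 month, and 36.5 and 50.6 at 3 months. The injured libraries again did not overlap with sham. It fell at 7 days (-1.18 ± 0.17, adjusted p = 0.000198) and at 3 months (-0.86 ± 0.20, adjusted p = 0.00852), and the 1-month difference of -0.53 ± 0.17 did not pass (adjusted p = 0.0546). The 3-month call was lost without replicate 1 of that group (adjusted p = 0.12). An antisense gene, AU022754, overlaps 6.61% of the exonic bases of Wnt7b.

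Wnt11, which acts mostly outside the beta-catenin branch (chromosome 7, 98835112 to 98855195, plus strand), held 22.2, 7.65 and 20.2 CPM in sham and 2.08, 3.42 and 3.07 at 7 days. At 1 month it held 4.84, 5.56 and 2.92, and at 3 months 14.6 and 5.95. All 7-day and 1-month libraries lay below sham, whereas those of 3 months overlapped with it. Wnt11 fell at 7 days (-2.54 ± 0.48, adjusted p = 0.00154) and 1 month (-1.91 ± 0.47, adjusted p = 0.014), the latter call being lost without 1-month replicate 3 (adjusted p = 0.0766). At 3 months the difference was -0.70 ± 0.52 (adjusted p = 0.429).

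Wnt8b, a ligand of the developing brain (chromosome 19, 44493472 to 44514273, plus strand), had 183 counts over the sham libraries, at 0.65, 5.13 and 0.54 CPM, and 1 count over those of 7 days. The count ratio was 257 (95% counting interval 45.6 to 10222), lower at 7 days, with adjusted p = 0.0398. No count was seen at 1 month, at least 95.1-fold lower than sham when set against a floor of 3 counts over the group (adjusted p = 0.0265), nor at 3 months, at least 44.5-fold lower (adjusted p = 0.0758, not called). Sham replicate 2 held most of the sham counts. The 7-day call was lost without it or without any one 7-day library (adjusted p up to 0.267), and the 1-month call without it or without any one 1-month library (up to 0.162).

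The other ligands did not pass against sham at any time. Wnt5a, the best-known ligand of the non-canonical branches, held 16.1, 7.95 and 6.78 CPM in sham and 23.8, 20.5 and 17.3 at 7 days, a difference of 0.99 ± 0.37 (adjusted p = 0.077). Wnt6 differed most within sham, at 1.87 and 1.11 CPM in replicates 1 and 2 and 36.3 in replicate 3. It held 3.59 to 6.48 CPM in the 7-day libraries, 10.4 to 26.2 in those of 1 month and 19.5 to 22.1 in those of 3 months. Summed Schwann markers were 369, 220.2 and 2339.7 in the same sham libraries, 631 to 739 in the 7-day, 1475 to 1965 in the 1-month and 1908 to 2576 in the 3-month libraries; their part in the Wnt6 values was not tested. Wnt10b had no count in sham and 35 at 7 days, at least 8.29-fold higher, but was not called (adjusted p = 0.107). At 1 month it had 75 counts, at least 16.0-fold higher. Wnt10a had 3 counts in sham and 64, 26 and 47 at 7 days, 1 month and 3 months (count ratios 15.2, 5.56 and 21.5). Wnt16 had 1 count in sham and 15, 101 and 12 at the same times (count ratios 10.7, 64.8 and 16.5). These ratios take no account of the spread between libraries, and none of these differences was called.

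Summed over the 19 ligands per exonic kilobase, sham libraries held 44.5 to 57.7 CPM per kb, 7-day libraries 18.0 to 22.2, 1-month libraries 29.1 to 37.5 and 3-month libraries 29.2 to 38.0. Sham and 7-day values did not overlap. Wnt7a and Wnt7b together made up 69.8%, 77.2% and 55.5% of the ligand sum in the sham libraries, 41.3% to 48.9% in the 7-day, 45.4% to 55.7% in the 1-month and 34.7% to 43.4% in the 3-month libraries. In sham replicate 3 Wnt6 took 28.7% of the sum, against 1.71% and 1.13% in replicates 1 and 2. Wnt5a and Wnt5b took 2.73% to 8.99% in sham and 22.9% to 25.5% at 7 days. These shares are descriptions of the libraries and were not tested. Beside them, 8 of 10 astrocyte markers fell at 7 days, 8 at 1 month and 7 at 3 months. Of 10 ependymal markers 8, 9 and 5 fell, with sums of 1282 to 2499.8 in sham and 497 to 568, 464 to 562 and 444 to 1004 in the injured groups. Their part in the ligand values was not tested.

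**Figure D2:**
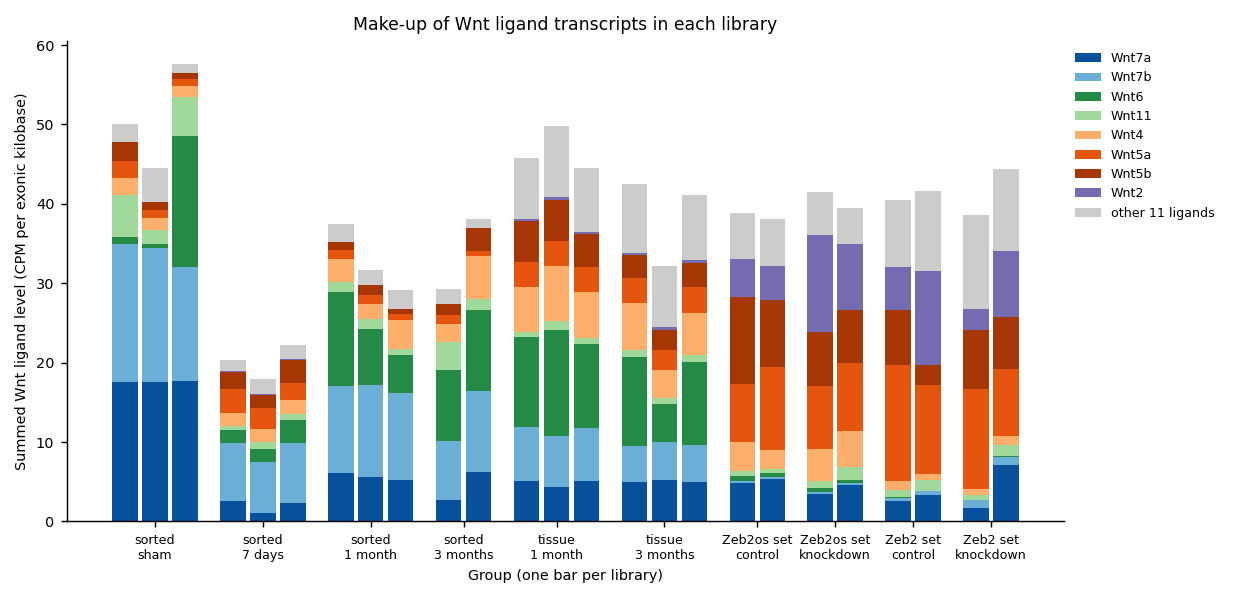
Each bar is 1 library and its height the summed level of the 19 ligands in CPM per exonic kilobase, split by ligand; tables were scaled separately, so heights are comparable within sorted, tissue, Zeb2os and Zeb2 sets. The Wnt7a and Wnt7b share is 69.8% and 77.2% in sham replicates 1 and 2 and at most 55.7% in every other bar, Wnt6 is larger in sham replicate 3 than in the other sham bars, and Wnt5a, Wnt5b and Wnt2 fill much of the culture bars.

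Among the Frizzled receptors, which bind the ligands, 1 of 10 was called at 7 days, 3 at 1 month and 2 at 3 months, beside 18.3%, 12.1% and 11.7% of all genes. Fzd9 (chromosome 5, 135248938 to 135251230, minus strand) held 93.6, 105 and 83.6 CPM in sham, 37.3, 30.4 and 57.5 at 7 days, 86.0, 101 and 81.3 at 1 month, and 71.2 and 84.9 at 3 months. The 7-day libraries lay below all others. It fell at 7 days (-1.17 ± 0.21, adjusted p = 0.00109), a call that held without any one library, and differed from sham by -0.07 ± 0.21 at 1 month and -0.27 ± 0.24 at 3 months.

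Fzd3, a receptor known for axon guidance (chromosome 14, 65192449 to 65262463, minus strand), held 99.02, 60.6 and 55.1 CPM in sham, 58.2, 58.2 and 44.2 at 7 days, 41.9, 40.8 and 37.4 at 1 month, and 33.4 and 25.9 at 3 months. The 1-month and 3-month libraries were below sham and the 7-day libraries overlapped with it. Fzd3 fell at 1 month (-0.84 ± 0.22, adjusted p = 0.0198) and 3 months (-1.27 ± 0.26, adjusted p = 0.00386). The first call was lost without sham replicate 1 or any one 1-month library (adjusted p up to 0.0912), and the second without 3-month replicate 3 (0.0752).

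Fzd10 (chromosome 5, 128600844 to 128604093, plus strand) held 13.7, 13.5 and 7.08 CPM in sham, 13.6, 11.9 and 11.7 at 7 days, 5.13, 2.41 and 4.94 at 1 month, and 1.71 and 4.19 at 3 months. The later groups were below both sham and 7 days. It fell at 1 month (-1.46 ± 0.43, adjusted p = 0.0366) and 3 months (-1.97 ± 0.51, adjusted p = 0.0196). The 1-month call was lost in 8 of 11 fits that left out 1 library (without sham replicate 1 or 2, or any one 7-day or 1-month library, adjusted p up to 0.167), and the 3-month call without replicate 1 of that group (0.157).

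Fzd1 (chromosome 5, 4753839 to 4758035, minus strand) rose at 1 month. It held 90.9, 77.3 and 91.5 CPM in sham, 110, 101 and 132 at 7 days, 150, 142 and 129 at 1 month, and 84.4 and 91.3 at 3 months. The 1-month libraries were above all sham libraries and those of 3 months were among them. The 1-month change was 0.70 ± 0.16 (adjusted p = 0.00766), held without any one library, and was 0.41 ± 0.16 at 7 days (adjusted p = 0.0879) and 0.02 ± 0.17 at 3 months. The other receptors that were called at no time against sham were Fzd2, Fzd4, Fzd5, Fzd6, Fzd7 and Fzd8.

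The co-receptor Lrp6 (chromosome 6, 134446476 to 134566965, minus strand) held 168, 163 and 149 CPM in sham, 236, 224 and 212 at 7 days, 199, 191 and 202 at 1 month, and 176 and 173 at 3 months. All injured libraries were above sham, by the widest margin at 7 days. It rose at 7 days (0.49 ± 0.14, adjusted p = 0.0217), and lost the call without sham replicate 3 or 7-day replicate 1 or 2 (adjusted p up to 0.0929). Its partner Lrp5 held 73.8 to 99.3 CPM in sham and 65.5 to 82.6 at 7 days and was not called at any time.

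The Dickkopf genes encode secreted proteins, of which Dkk1, Dkk2 and Dkk4 bind Lrp5 and Lrp6; Dkk3 is divergent. Dkk2 (chromosome 3, 132085292 to 132180304, plus strand) was almost absent from sham cells and rose at every time. It held 0.062, 0 and 0 CPM in sham (2 counts in all), 2.33, 2.41 and 1.5 at 7 days, 8.15, 3.81 and 13.9 at 1 month, and 24.4 and 21.9 at 3 months. The groups did not overlap, each later group lying above the one before. With counts this low in sham the size is best read from count ratios: 80.0 for the 7-day group (95% counting interval 21.9 to 664), 314 for the 1-month group (86.7 to 2595) and 922 for the 3-month group (255 to 7617). The fitted log2 changes were 6.18 ± 0.81 (adjusted p = 8.16e-05), 8.23 ± 0.81 (1.16e-05) and 9.65 ± 0.84 (3.09e-06), and all 3 calls held without any one library. Beside this rise, 10 of 10 endothelial markers rose at 7 days, 6 at 1 month and 8 at 3 months, with summed levels of 58.4 to 170.3 in sham and 434 to 539, 227 to 274 and 407 to 609 in the 7-day, 1-month and 3-month libraries. Markers of fibroblasts and meninges rose in 8 of 10 at 7 days, 8 at 1 month and 7 at 3 months, with sums of 2287 to 2778, 5024 to 5433, 4711 to 4975 and 3376 (both 3-month libraries). Microglia and macrophage markers rose in 10 of 12 at 7 days, 10 at 1 month and 11 at 3 months, with sums of 392 to 1715 in sham and 4902 to 7454, 3915 to 6148 and 9971 to 13091 in the injured groups. Schwann markers rose in 0, 2 and 1 of 10, and their sums are those given beside Wnt6. The part of these cell types in the Dkk2 result was not tested.

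Dkk3 (chromosome 7, 112116017 to 112159057, minus strand) held 35.0, 21.2 and 30.9 CPM in sham, 68.3, 64.0 and 66.1 at 7 days, 46.1, 28.5 and 40.0 at 1 month, and 28.5 and 28.2 at 3 months. The 7-day libraries were above all others. It rose at 7 days (1.19 ± 0.22, adjusted p = 0.00114), a call held without any one library, and was not called at 1 month (0.40 ± 0.22) or 3 months (-0.03 ± 0.24).

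Of the 5 ligand-binding inhibitors, Sfrp5 alone was called, at 7 days. Secreted Frizzled-related proteins bind Wnt ligands through a Frizzled-like domain. Sfrp5 (chromosome 19, 42197971 to 42202252, minus strand) held 74.5, 29.1 and 144 CPM in sham, 15.4, 16.9 and 23.0 at 7 days, 42.3, 63.8 and 39.5 at 1 month, and 64.5 and 119 at 3 months. The 7-day libraries were below all others, while sham libraries differed widely, with replicate 3 highest. The fall at 7 days was -2.16 ± 0.42 (adjusted p = 0.00191), and -1.49 without sham replicate 3, the library rich in Schwann markers; it was called without any one library. Sfrp4 held 1.87, 7.95 and 5.69 CPM in sham and 14.0 and 21.8 at 3 months, where its difference of 1.79 ± 0.57 just missed the threshold (adjusted p = 0.0518).

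Tcf7 and Lef1 encode Tcf/Lef factors, and Axin2 a scaffold induced by canonical signalling. Tcf7 (chromosome 11, 52252371 to 52283014, minus strand) held 3.62, 6.21 and 7.69 CPM in sham, 14.0, 18.7 and 14.6 at 7 days, 14.7, 21.3 and 9.21 at 1 month, and 9.85 and 15.3 at 3 months. Every injured library was above every sham library. It rose at 7 days (1.44 ± 0.37, adjusted p = 0.0114) and 1 month (1.38 ± 0.37, adjusted p = 0.0214), and the 3-month difference of 1.11 ± 0.40 did not pass (adjusted p = 0.088). The 7-day call was lost without 7-day replicate 2 (0.0584), and the 1-month call without sham replicate 1 or 1-month replicate 1 or 2 (up to 0.128).

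Lef1 (chromosome 3, 131110471 to 131224356, plus strand) held 3.34, 2.65 and 2.06 CPM in sham, 6.20, 5.75 and 7.91 at 7 days, 3.98, 2.99 and 6.06 at 1 month, and 9.49 and 12.4 at 3 months. The 7-day and 3-month libraries were above sham. It rose at 7 days (1.30 ± 0.43, adjusted p = 0.0492) and 3 months (2.02 ± 0.47, adjusted p = 0.0104). The 7-day call was lost in 8 of 11 fits that left out 1 library (sham replicate 2 or 3, any one 7-day library, 1-month replicate 1, or either 3-month library, adjusted p up to 0.159), and the 3-month call without 3-month replicate 3 (0.126). Mean Lef1 was lowest in sham (2.68 CPM), next in the 1-month group (4.34), and higher in the 7-day (6.62) and 3-month (10.96) groups. The endothelial marker sums given beside Dkk2 had sham lowest and the 1-month group next. Those for microglia and macrophages were 392 to 1715 in sham and 3915 to 6148 at 1 month. At 7 days they were 4902 to 7454, overlapping with 1 month, and at 3 months 9971 to 13091. Sums for microglia and macrophages, and for fibroblasts and meninges, were also above sham in every injured library. The part of these cell types in the Tcf7 and Lef1 results was not tested. The antisense gene Gm43352 overlaps 13.8% of the exonic bases of Lef1 and held 0.43 ± 0.51 CPM in sham, 2.53 ± 0.46 at 7 days, 1.76 ± 0.65 at 1 month and 2.37 ± 2.03 at 3 months, so the Lef1 values are uncertain where the counting could mix strands.

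Axin2 held 54.2, 36.4 and 46.1 CPM in sham, 65.6, 48.9 and 55.1 at 7 days, 70.1, 55.4 and 58.3 at 1 month, and 47.9 and 54.1 at 3 months. The 1-month libraries were above all sham libraries, while those of 7 days and 3 months overlapped with sham. Axin2 was called at no time (0.31 ± 0.19, adjusted p = 0.305 at 7 days, 0.43 ± 0.19, adjusted p = 0.172 at 1 month, and 0.16 ± 0.21, adjusted p = 0.687 at 3 months).

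**Figure D3:**
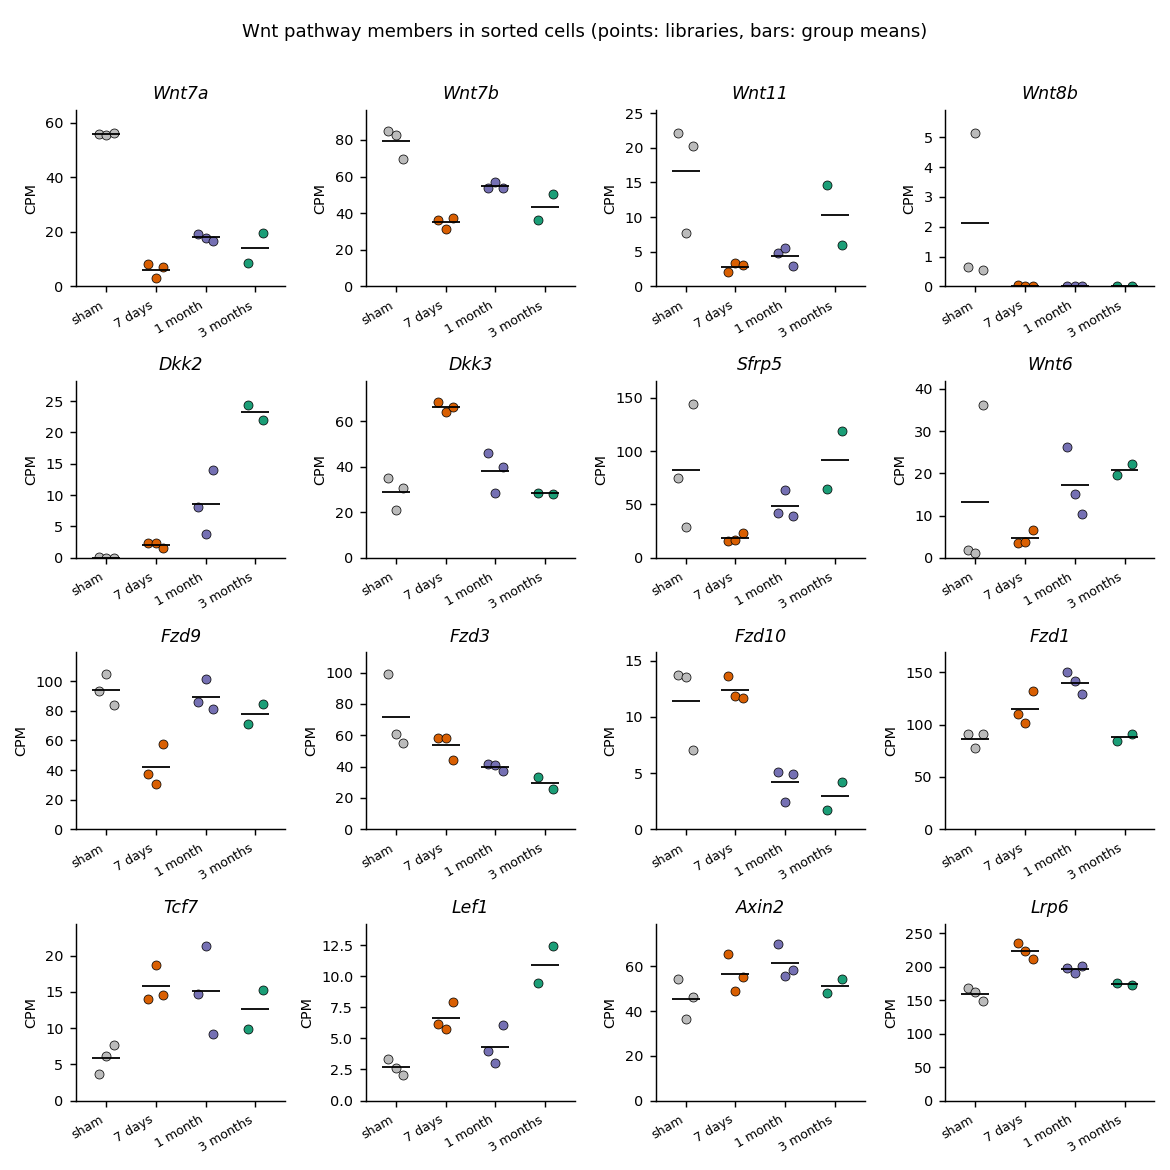
Points are the CPM of single sorted libraries on a linear axis from 0, and bars the group means, for 16 members in sham and at 7 days, 1 month and 3 months. Wnt7a and Wnt7b sit lower in every injured library than in sham, Dkk2 climbs from near 0 to 24.4 CPM, and Sfrp5 and Wnt6 are highest among sham libraries in replicate 3. Axin2 overlaps between sham and 7 days and lies above sham at 1 month without being called.

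Beyond the members, a list of 82 further genes of the pathway was followed, of which 81 were found and 78 tested. At 7 days 7 rose and 10 fell, at 1 month 7 rose and 8 fell, and at 3 months 6 rose and 8 fell, beside the 18.3%, 12.1% and 11.7% of all genes called at these times. The largest fall at each time was in Lgr6, a receptor for the Wnt-enhancing R-spondins, at 25.4, 62.8 and 42.5 CPM in sham, then 8.94 to 13.0 (7 days), 3.15 to 9.03 (1 month) and 2.09 to 4.23 (3 months). Its log2 changes were -2.03 ± 0.41 (adjusted p = 0.00238), -2.95 ± 0.43 (0.000318) and -3.77 ± 0.53 (0.000206). Apcdd1, a membrane-bound Wnt inhibitor, rose from 28.2 to 46.3 CPM in sham to 132 to 153 at 7 days (1.90 ± 0.22, adjusted p = 2.62e-05). It was also higher than sham at 1 month (1.01 ± 0.21, adjusted p = 0.00493) and 3 months (0.77 ± 0.23, adjusted p = 0.0435). Celsr1, a cadherin of the planar cell polarity branch, fell at each time (-1.57 ± 0.28, -1.63 ± 0.28 and -1.54 ± 0.32), and Daam2, which acts downstream of Dishevelled, fell at 7 days (-1.73 ± 0.30) and 1 month (-1.39 ± 0.29). At 7 days Tle2, a co-repressor, fell by 1.89 ± 0.37 on the log2 scale, while Tpbg rose by 1.69 ± 0.47. At 1 month Ndp, the Norrin ligand of Fzd4, and the glypican Gpc4 fell (-1.26 ± 0.33 and -1.22 ± 0.33). At 3 months Rhou and Ror2, a receptor for Wnt5a, fell (-1.13 ± 0.32 and -1.07 ± 0.33), and Prickle1 rose (1.08 ± 0.33).

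Of 4 further genes known as outputs or brakes of the canonical branch, Nkd1, an inhibitor acting on Dishevelled, held 27.1, 16.2 and 34.7 CPM in sham, 30.1, 34.7 and 45.4 at 7 days, 68.1, 89.9 and 74.2 at 1 month, and 52.1 and 69.3 at 3 months. The 1-month and 3-month libraries were above sham. Nkd1 was not called at 7 days (0.50 ± 0.25, adjusted p = 0.202) and rose at 1 month (1.58 ± 0.26, adjusted p = 0.00075) and 3 months (1.23 ± 0.28, adjusted p = 0.00843). Znrf3, which removes Frizzled from the cell surface, fell at 7 days (-0.77 ± 0.19, adjusted p = 0.009) and 3 months (-0.73 ± 0.21, adjusted p = 0.0366) and differed by -0.54 ± 0.19 at 1 month (adjusted p = 0.0755). Notum, an enzyme that strips the lipid from Wnt ligands, and Sp5, a transcription factor, were not called at any time and held 1.42 to 4.78 and 0.29 to 3.34 CPM over the sorted libraries.

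Between 7 days and 1 month 4 of the 38 members were called, 3 higher and 1 lower, against 2.61% of all genes (1.52% higher, 1.09% lower). Wnt7a (1.54 ± 0.33, adjusted p = 0.0235), Fzd9 (1.10 ± 0.21, adjusted p = 0.0133) and Dkk2 (2.05 ± 0.52, adjusted p = 0.0479) rose, all with values given earlier. Fzd6 (chromosome 15, 39006034 to 39038188, plus strand) held 32.5, 30.4 and 40.7 CPM at 7 days and 17.2, 14.5 and 13.3 at 1 month, without overlap, and fell by 1.20 ± 0.27 on the log2 scale (adjusted p = 0.0296). The count was 7, 10 and 11 without sham replicate 1, 2 and 3, and 0 or 1 without any one 7-day or 1-month library. In other fits it was 9 with DESeq2, 10 with no filter on low counts and 15 with the 2 groups alone. Each call was lost when some single library was left out, with adjusted p up to 0.123 for Wnt7a, 0.1 for Fzd9, 0.274 for Dkk2 and 0.145 for Fzd6. In the list of further pathway genes Nkd1 (1.07 ± 0.25), Dact1 (1.01 ± 0.23) and Porcn, the enzyme that attaches the lipid to Wnt ligands (0.77 ± 0.20), rose and Apcdd1 fell (-0.88 ± 0.21). Porcn had fallen against sham at 7 days (-1.44 ± 0.20, adjusted p = 0.000127) and was still lower than sham at 1 month (-0.66 ± 0.20, adjusted p = 0.0371). Between 1 month and 3 months edgeR called 0 of 38 members, against 0.387% of all genes (0.103% higher, 0.284% lower), and DESeq2 called 1, Fzd1.

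In whole tissue 37 members were tested between 1 month and 3 months and 2 were called, both lower, against 14.7% of all genes (6.69% higher, 8.01% lower). The count was 0 without 1-month replicate 1, 1 without 1-month replicate 2 and 5 without 3-month replicate 1. Wnt7b held 33.4, 31.3 and 32.7 CPM at 1 month and 22.1, 23.8 and 23.2 at 3 months. Its groups did not overlap, and it fell by 0.50 ± 0.07 on the log2 scale (adjusted p = 0.00735). Wnt5b, a ligand related to Wnt5a (chromosome 6, 119432531 to 119544347, minus strand), held 13.7, 13.7 and 11.0 CPM and then 7.83, 6.49 and 7.96, again without overlap, and fell by 0.79 ± 0.14 on the log2 scale (adjusted p = 0.0135). Wnt7b lost its call without 1-month replicate 1 (adjusted p = 0.0569), and Wnt5b without 1-month replicate 1 or 2 (up to 0.0774). Of 79 further pathway genes tested, 7 rose and 5 fell, the largest change being in Gsk3b, the kinase that marks beta-catenin for destruction (0.60 ± 0.06, adjusted p = 0.00301). In the same comparison 10 of 12 microglia and macrophage markers fell, with sums of 5328 to 7276 at 1 month and 2088 to 3079 at 3 months. Of 9 tested neuron markers 5 rose, with sums of 3501 to 4656 and then 5324 to 6009. Their part in these results was not tested.

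Sorted cells were then set beside tissue of the same time in a fit over both tables. The kind of sample, the strain and the table cannot be told apart in this comparison. At 1 month 24 of 37 members were called, 10 higher and 14 lower in sorted cells, against 51.5% of all genes (23.3% higher, 28.2% lower). At 3 months 25 were called, 14 higher and 11 lower, against 50.7% (22.5% higher, 28.2% lower). At both times sorted cells held more of 5 Frizzled receptors, Fzd1, Fzd3, Fzd5, Fzd8 and Fzd9, of both co-receptors, and of Axin2, Tcf7 and Wnt7b. The difference was largest for Fzd9, at 86.0, 101 and 81.3 CPM in sorted cells and 11.2, 10.3 and 10.5 in tissue at 1 month (2.97 ± 0.12, adjusted p = 6.09e-09), and 2.77 ± 0.12 at 3 months. Fzd3 followed at 1 month (2.65 ± 0.23, adjusted p = 1.85e-06), at 41.9, 40.8 and 37.4 CPM in sorted cells and 6.89, 5.75 and 5.33 in tissue. Of the receptors only Fzd10 was called lower at both times, at 26.6, 26.0 and 25.3 CPM in tissue at 1 month (-2.75 ± 0.34, adjusted p = 3.64e-05). The gene Gm38058, on the opposite strand, overlaps 17.8% of the exonic bases of Fzd5. At 1 month Gm38058 held 4.33 ± 2.60 CPM in sorted cells and 0.63 ± 0.22 in tissue. The Fzd5 values are therefore uncertain where the counting could mix strands.

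Ligands and secreted inhibitors made up most of the members that were lower in sorted cells. Of 15 tested ligands 9 were lower and 1 higher at 1 month, and 7 lower and 2 higher at 3 months. Wnt2 and Wnt8b had no count in sorted cells at either time, at least 29.3-fold and 44.7-fold lower than tissue at 1 month and at least 17.7-fold and 19.3-fold lower at 3 months. Wnt3 held 9.60, 9.95 and 11.5 CPM in tissue and 1.18, 0.72 and 0.23 in sorted cells at 1 month (-3.94 ± 0.82, adjusted p = 0.00183). Dkk3 held 140, 140 and 135 CPM in tissue and 46.1, 28.5 and 40.0 in sorted cells (-1.95 ± 0.15, adjusted p = 6.49e-07). Wnt5a, Wnt9a, Wnt16, Sfrp1 and Sfrp2 were also lower at both times. The antisense gene Gm26771 overlaps 16.1% of the exonic bases of Sfrp2. At 1 month Gm26771 held 0.11 ± 0.18 CPM in sorted cells and 1.62 ± 0.44 in tissue. The Sfrp2 values are thus uncertain where the counting could mix strands. Sfrp2 lost its 1-month call without 1-month tissue replicate 2 (adjusted p = 0.0501) and its 3-month call in 7 of 11 fits without 1 library (without 1-month sorted replicate 1 or any one tissue library, up to 0.0884). Tcf7 lost its 1-month call without 1-month sorted replicate 2 or 1-month tissue replicate 1 (0.0725), and its 3-month call without 3-month sorted replicate 3, any one 1-month tissue library or 3-month tissue replicate 2 or 3 (up to 0.253). Neuron markers summed to 129 to 184 in sorted libraries and 3501 to 6009 in tissue, and oligodendrocyte markers to 387 to 1909 and 18831 to 27671. At both times 10 of 10 oligodendrocyte precursor markers (medians 3.6 and 3.42) and 10 of 10 ependymal markers (3.14 and 3.22) were higher in sorted cells. Of 12 microglia and macrophage markers 2 were higher and 3 lower at 1 month, and 12 were higher at 3 months (median 2.04). The part of these cell types in the differences was not tested.

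**Figure D4:**
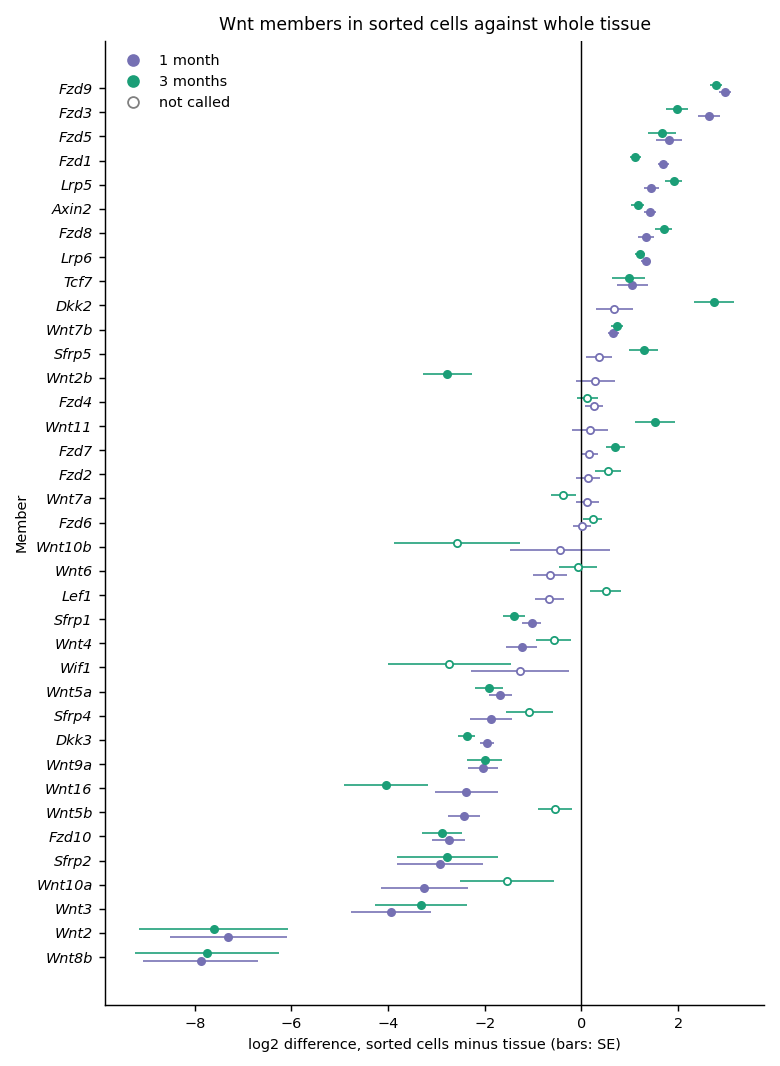
Points give the log2 difference between sorted cells and tissue for the 37 tested members at 1 month and 3 months, with bars of 1 SE; open points were not called. Fzd9 and Fzd3 lie far right (2.97 and 2.65 at 1 month), Wnt2 and Wnt8b far left because they had no count in sorted cells, and Dkk2 moves from 0.68 at 1 month to 2.75 at 3 months.

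The change from 1 month to 3 months differed between sorted cells and tissue for 4 of 37 members in a test of the interaction, 2 higher and 2 lower in sorted cells, against 14% of all genes (5.92% higher, 8.08% lower). The count was 2 without 1-month sorted replicate 1 or 3-month tissue replicate 2 or 3, and 1 without 1-month tissue replicate 1 or 2. Dkk2 held 8.15, 3.81 and 13.9 CPM and then 24.4 and 21.9 in sorted cells, and 5.03, 6.10 and 3.90 and then 3.55, 2.88 and 2.75 in tissue. The difference of its changes was 2.07 ± 0.56 (adjusted p = 0.031). Wnt5b went from 2.46, 3.37 and 1.76 CPM to 3.65 and 7.90 in sorted cells while it fell in tissue (1.88 ± 0.46, adjusted p = 0.0213). Wnt2b went from 3.50, 3.59 and 5.31 CPM to 1.33 and 0.52 in sorted cells and from 3.18, 3.16 and 3.13 to 8.59, 3.94 and 4.88 in tissue (-3.06 ± 0.63, adjusted p = 0.00941). For Fzd1 the difference was -0.58 ± 0.16 (adjusted p = 0.0296). In the same test 12 of 12 microglia and macrophage markers were called higher (median 2.22), 6 of 10 oligodendrocyte markers (median 0.86) and 3 of 10 endothelial markers (median 0.95). The microglia and macrophage sums went from 3915 to 6148 up to 9971 to 13091 in sorted cells, and from 5328 to 7276 down to 2088 to 3079 in tissue. Their part in the 4 results was not tested.

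In the cultures the targeted genes were read first. In the Zeb2 set Zeb2 held 147 and 134 CPM in the controls and 23.2 and 16.1 in the libraries labelled knockdown, a log2 difference of -2.83 ± 0.33 that edgeR did not call (adjusted p = 0.999). In the Zeb2os set Zeb2os held 5.82 and 3.80 CPM in the controls and 3.14 and 4.32 in the libraries labelled knockdown. These overlapped (-0.36 ± 0.35, adjusted p = 0.735), so the label of the Zeb2os set was not borne out by its target, and directions there are those of the libraries labelled Zeb2os knockdown.

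In the Zeb2os set edgeR called 0 of 36 members, against 0.188% of all genes (0.121% higher, 0.0675% lower), and DESeq2 called 1, Wnt2. Wnt2 held 10.7 and 9.57 CPM in the controls and 27.4 and 18.7 in the libraries labelled Zeb2os knockdown (1.19 ± 0.25, adjusted p = 0.118). Dkk2 held 17.6 and 16.0 against 34.2 and 22.6 CPM (0.76 ± 0.25, adjusted p = 0.273), and Fzd1 80.7 and 94.7 against 48.7 and 57.2 (-0.73 ± 0.21, adjusted p = 0.222). Wif1, a secreted ligand-binding inhibitor, held 8.22 in each control and 3.98 and 3.80 CPM in the libraries labelled knockdown (-1.08 ± 0.28, adjusted p = 0.172). The groups of these 4 genes did not overlap, but with 2 libraries a group this is common without a difference. The share of all genes without overlap was not counted. The count rested on single libraries: without control replicate 1 edgeR called 13 members and without control replicate 2 it called 4, with the lone control assumed to vary like the other group.

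In the Zeb2 set edgeR called 0 of 32 members, against 0% of all 17609 genes tested, and DESeq2 called 0. Fzd7, the highest member per kilobase there, held 263 and 291 CPM in the controls and 119 and 131 in the knockdown libraries (-1.14 ± 0.28, adjusted p = 0.999), and was called without knockdown replicate 2. Dkk3 held 108 and 56.9 against 24.3 and 48.4 CPM (-1.18 ± 0.48), Sfrp1 125 and 88.6 against 45.5 and 64.3 (-0.96 ± 0.34), and Wnt7b 1.496 and 2.11 against 4.58 and 5.21 (1.44 ± 0.45). The groups of these genes did not overlap, which with 2 libraries a group carries little weight, and none was called (adjusted p = 0.999 for each). The difference between the 2 knockdown effects was called for 0 of 36 members, against 0% of all genes, and DESeq2 called 1, Fzd7. The targeted gene, the puromycin schedule and the table all differ between the sets and cannot be told apart there. Further pathway genes gave 0 calls of 77 in the Zeb2os set and 0 of 76 in the Zeb2 set. The summed pericyte and smooth muscle markers ran from 2946 to 16265 over the cultures and the summed astrocyte markers from 659.8 to 1374.

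**Figure D5:**
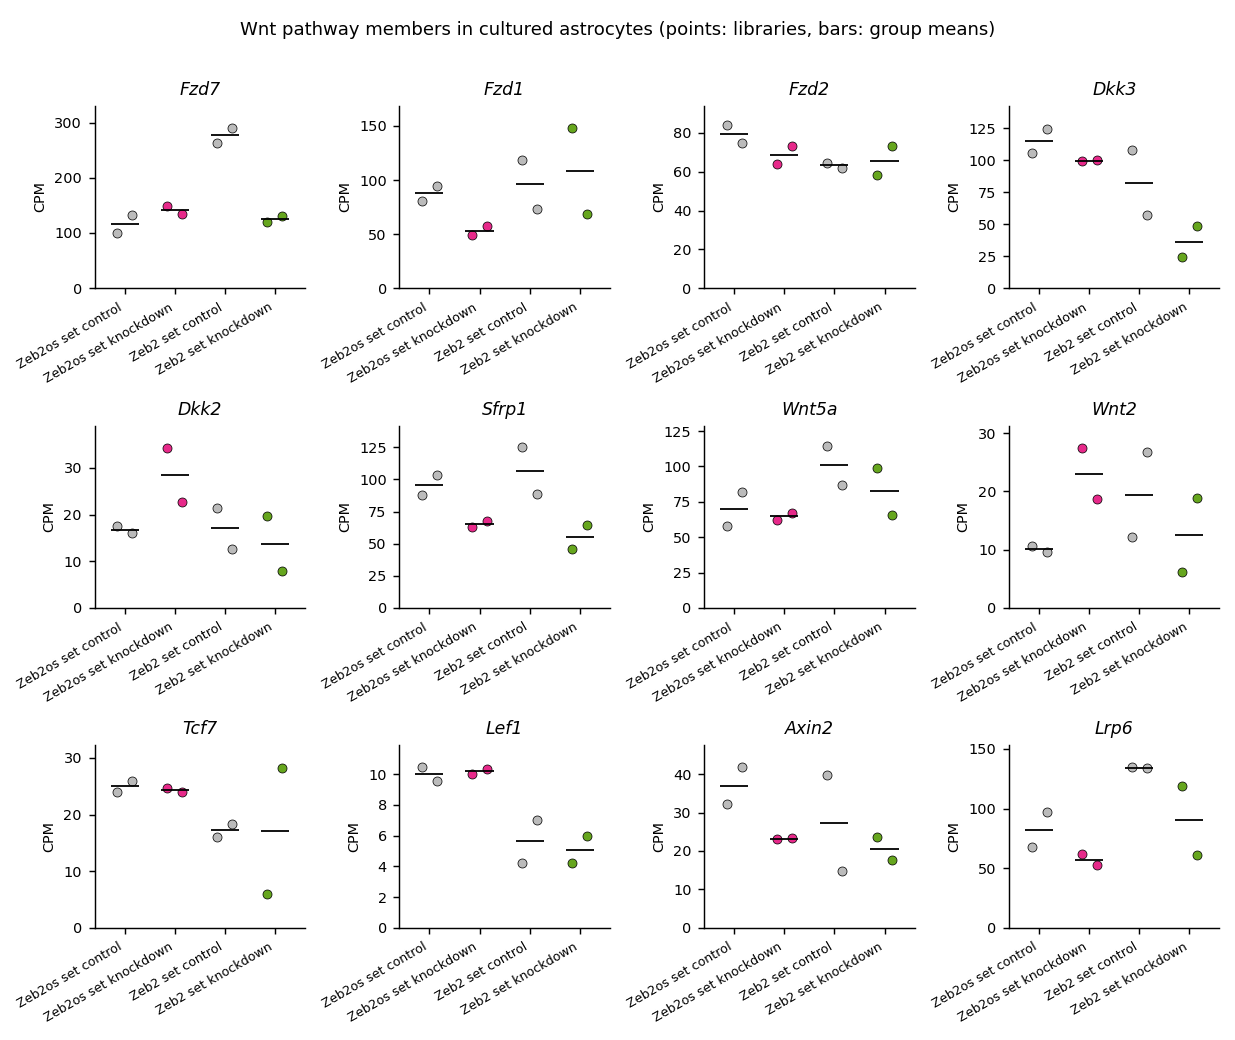
Points are the CPM of single culture libraries on a linear axis from 0, and bars the group means, for 12 members in control and knockdown libraries of both sets. Fzd7 is lower in both Zeb2 knockdown libraries (119 and 131) than in their controls (263 and 291), Wnt2 is higher in both libraries labelled Zeb2os knockdown, and no difference shown passed edgeR's test.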

How the data were processed

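The authors deposited 4 tables of unnormalised counts, judged raw because they are whole numbers with unequal library totals. The submitters' processing notes name mm10 as build and, as tools, TopHat2 2.1.0, FastQC, DESeq2 and Cufflinks 2.2.1. The counting program, its annotation and its strand setting are not given in the sources used here, while the kit marks strand per the labels' protocols. Without that setting, reads of a gene and of its antisense partner could be mixed. Each table was filtered with edgeR's filterByExpr (minimum count 10), scaled by TMM and tested by quasi-likelihood in edgeR 4.0.16 (R 4.3.3), with all groups of a table in 1 fit and Benjamini-Hochberg adjustment over all genes tested. Sorted and tissue tables, and the 2 culture tables, were joined by gene identifier for 4 of the 12 comparisons. CPM used the TMM-scaled totals of a table's own fit, and each standard error (SE) is the log2 change divided by the square root of F. Intervals of count ratios are exact, at 95%, and cover counting error only. All 43 members matched GENCODE M21 on GRCm38 by base identifier, 36 in the same version; positions and exonic lengths come from it, and promoters from RefSeq. Called members were named with their values, up to 12 a comparison, the rest by role and level. Other pathway genes were named up to 6 a comparison by size of change, plus Nkd1, Notum, Sp5 and Znrf3. Also named were Apcdd1 at its later calls against sham and Porcn at its calls against sham. The members and lists were chosen with earlier results of these data known. The test was also run on counts simulated from the fitted dispersions, which checks its working and not its power in the real libraries. Alternatives were DESeq2 1.42.0, its size factors in edgeR, no filter, only the 2 groups compared, the replicate block and leaving out each library.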

Additional observations from a re-analysis of the deposited data

Results flagged for a closer look

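Of 4 members it was found by a test of the interaction in edgeR that the change from 1 month to 3 months after injury differed between sorted cells and tissue. The difference of the log2 changes, sorted minus tissue, was 2.07 for Dkk2 (adjusted p = 0.031) and 1.88 for Wnt5b (adjusted p = 0.0213), so both moved up relative to tissue. It was -3.06 for Wnt2b (adjusted p = 0.00941) and -0.58 for Fzd1 (adjusted p = 0.0296), which moved down relative to tissue. The Wnt2b call held without any one library. The call for Dkk2 was lost in 7 of 11 fits that left out 1 library (adjusted p up to 0.0865), as was that for Fzd1 (up to 0.0821). That for Wnt5b was lost without 3-month sorted replicate 3, 1-month tissue replicate 1 or 2, or 3-month tissue replicate 2. In the same test microglia and macrophage markers were called higher in 12 of 12 (median 2.22), and their part in these results was not tested. Kind of sample, strain and table cannot be told apart.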

How the results depend on the processing

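The 84 member calls (a member in a comparison) were recomputed under each alternative. None changed sign, 1158 of the recomputed values stayed past the threshold and 121 lost the call. Members that were not called and the further pathway genes were not followed one by one. Counts of called members moved by over 1.5 times as follows. With only the 2 groups compared, the count was 2 instead of 6 at 3 months against sham, 15 instead of 4 at 1 month against 7 days and 1 instead of 0 at 3 months against 1 month. With no filter on low counts it was 10 at 1 month against 7 days, and 1 instead of 0 at 3 months against 1 month, in the Zeb2os set and for the difference of knockdown effects. DESeq2 gave 9 at 1 month against 7 days, 4 instead of 2 in tissue, and 1 instead of 0 at 3 months against 1 month, in the Zeb2os set and for the difference of knockdown effects. Same-numbered replicates did not deviate together in 3 sets (r from -0.044 to 0.081 in sorted libraries, -0.274 to -0.011 in tissue and -0.026 in the Zeb2os set). In the Zeb2 set r was 0.39 for same-numbered and -0.39 for differently numbered libraries. With 2 libraries a group this cannot decide whether they were pairs. The numbers were not taken as pairs in the main fits. The replicate block, like the main fit, called 0 members in the Zeb2 set. The replicate block gave 0 instead of 2 in tissue, 1 instead of 0 in the Zeb2os set and 2 instead of 4 for the interaction of sorted cells and tissue. Leaving out 1 library gave, against sham, 7 to 13 calls for the 7-day group, 4 to 12 for the 1-month group and 4 to 9 for the 3-month group. It gave 0 to 11 at 1 month against 7 days, 0 to 1 at 3 months against 1 month, 0 to 5 in tissue, 0 to 13 in the Zeb2os set and 0 to 1 in the Zeb2 set. For sorted cells against tissue the ranges were 23 to 25 at 1 month and 23 to 26 at 3 months, with 1 to 5 for the interaction and 0 to 4 for the difference of knockdown effects. Against sham, the lowest counts came without 7-day replicate 2 (7), without any one 1-month library (4 each) and without 3-month replicate 3 (4). The causes were not tested. Wnt1, Wnt2, Wnt3a, Wnt9b and Dkk4 had too few counts in sorted cells for a test at this depth.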
